A study of Mus musculus with 12 samples.

Results

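The genes described are the 10 core circadian clock genes Arntl, Clock, Npas2, Per1, Per2, Per3, Cry1, Cry2, Dbp and Tef, taken by symbol from a nuclear RNA count table of 46983 gene symbols. All 10 were in the table, and all 10 passed the filter on low counts. The RNA came from nuclei of adult mouse cardiomyocytes, the muscle cells of the heart, bound to beads through PCM1, a protein at the nuclear surface that is used to select cardiomyocyte nuclei. The control group was Myh6-MCM mice given tamoxifen. In these mice a Cre recombinase that tamoxifen activates is made under the Myh6 promoter, which is active in heart muscle cells. The YAP5SA group was Yap5SA+/tg; Myh6-MCM mice, also given tamoxifen, in which Cre switches on YAP5SA, a form of the co-activator YAP that the Hippo kinases cannot restrain. Both groups therefore carried the Myh6-MCM transgene and received tamoxifen, and each had 2 libraries, replicates 1 and 2. The sources used here do not give the hour at which hearts were collected, nor whether replicates came from separate animals, so the p-values cover the spread between these 4 libraries alone, which may be technical.

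The circadian clock is a feedback loop of transcription that runs in nearly every cell, cardiomyocytes included. BMAL1, the product of Arntl, pairs with CLOCK or with its relative NPAS2 and activates genes through E-boxes. Among those genes are Per and Cry, whose proteins enter the nucleus and block the activators, and Dbp and Tef, which encode transcription factors of the PAR bZIP family that act through D-boxes. In a running clock Arntl and Npas2 peak at a phase opposite to Dbp, Per and the nuclear receptor gene Nr1d1, whereas Clock cycles weakly in most tissues.

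The members are grouped here by the role of their proteins, as activators, repressors or output factors. Promoter sequences that carry E-boxes or D-boxes are shown for 3 members and for Ciart, a clock repressor described below. They are the 250 bases before the start site, from RefSeq on build GRCm38.p6, 5′ to 3′ on the strand of the gene, with the matches in capitals.
Per1, chr11:69098699-69098948, + strand: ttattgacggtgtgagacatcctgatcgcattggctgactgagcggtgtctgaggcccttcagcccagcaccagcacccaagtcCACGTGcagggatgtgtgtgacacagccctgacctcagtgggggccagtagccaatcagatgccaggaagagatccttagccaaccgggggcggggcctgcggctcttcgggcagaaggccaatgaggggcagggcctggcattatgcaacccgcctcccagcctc
Cry1, chr10:85185055-85185304, - strand: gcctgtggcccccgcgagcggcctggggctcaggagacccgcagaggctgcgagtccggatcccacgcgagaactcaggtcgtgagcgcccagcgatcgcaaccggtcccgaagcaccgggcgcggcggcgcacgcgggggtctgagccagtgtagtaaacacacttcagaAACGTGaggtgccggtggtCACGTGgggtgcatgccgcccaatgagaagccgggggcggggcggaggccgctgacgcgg
Per3, chr4:151044666-151044915, - strand: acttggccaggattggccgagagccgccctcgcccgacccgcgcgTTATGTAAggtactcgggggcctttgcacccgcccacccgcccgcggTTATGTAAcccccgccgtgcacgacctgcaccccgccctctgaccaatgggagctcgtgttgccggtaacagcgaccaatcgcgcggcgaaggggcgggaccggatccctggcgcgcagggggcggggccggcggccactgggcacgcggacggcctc
Ciart, chr3:95882229-95882478, - strand: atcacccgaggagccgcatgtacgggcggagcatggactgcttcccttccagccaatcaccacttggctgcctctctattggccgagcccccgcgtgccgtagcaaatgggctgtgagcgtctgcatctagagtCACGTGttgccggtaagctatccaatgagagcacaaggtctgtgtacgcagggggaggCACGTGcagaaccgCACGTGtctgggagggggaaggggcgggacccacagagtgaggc
Capitals mark the E-box CACGTG in Per1, Cry1 and Ciart, the variant AACGTG (its other strand reads CACGTT) in Cry1, and the D-box TTATGTAA in Per3. The search covered both strands of windows from 250 bases before to 50 after each start. It took the E-box CACGTG as one motif and its variant CACGTT as another, the D-box in the forms TTATGTAA and TTACGTAA, the core that ROR receptors read as TAGGTCA or, in a second form, as TGGGTCA, and the cyclic AMP element TGACGTCA. None of these motifs contains another. A promoter entry was held for 9 of the 10 members, all but Per2, with 14 entries in all. An E-box was found in 4 of the 14 entries (Per1 in 1 of its entries, Cry1, and Tef in both), beside 7.15% of all 32851 promoters. Per3 held 2 copies of TTATGTAA, which 0.938% of promoters hold, Arntl held TAGGTCA (2.61%), and Cry2 as well as Cry1 held CACGTT (4.68%). Ciart held 3 E-boxes. A match is a description of letters, not of a bound site.

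Total counts ran from 7850661 to 15012122 per library, so a count of 0 allowed between 0.202 and 0.397 CPM, counting error only. CPM are counts brought to one library size, after correction by TMM, a method that balances library composition. Neither replicate pair agreed within sampling noise: the mean chi-square per gene was 63.0 between the control libraries and 15.8 between the YAP5SA libraries, so the control libraries stood further apart. Of the 9 cardiomyocyte markers checked, none was at 0, and their summed level, most of it Ttn, was 33577 and 70599 CPM in control and 25123 and 26817 CPM in YAP5SA. Yap1 itself was at 138 and 166 CPM in control and 168 and 161 CPM in YAP5SA; whether transgene reads were counted under it is not known, so it checks nothing about the labels. Markers of other heart cells were present too. The 10 macrophage markers summed to 356 to 527 CPM in control and 956 to 1129 CPM in YAP5SA. The 7 endothelial markers summed to 982 to 1379 and 687 to 721 CPM, in the same order. The 6 fibroblast markers summed to 3044 to 4230 and 2829 to 3379 CPM, most of it Col1a1 and Col1a2. None of these markers was at 0 in any library. Both YAP5SA libraries lay above both controls for all 10 macrophage markers and below them for all 7 endothelial markers. Over all tested genes this held for 28.1% and 28.3%. Of the fibroblast markers 2 (Dcn and Lum) lay above and 2 below. The part of these shifts in the clock results was not tested, and in bulk nuclei fewer cells of a type cannot be told apart from less RNA per cell.

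Clock genes were lower in YAP5SA nuclei by point estimate in 9 of 10 cases (54.3% of all tested genes were), with a median log2 fold change of -0.66 beside -0.06 over all 17715 tested genes, and none of the 10 passed an adjusted p of 0.05 in edgeR's quasi-likelihood test. Over all tested genes 0.999% passed as lower and 3.12% as higher. At an unadjusted p under 0.05, 3 members were lower (Per3, Arntl and Dbp) and 0 higher, beside 10.9% and 12.7% of all tested genes. In 5 members (Arntl, Per3, Cry2, Dbp and Tef) both YAP5SA libraries lay below both control libraries, which held for 28.3% of all tested genes. Without control replicate 1, 6 of the 10 members were lower by value. The median of the 10 was then -0.23 on the log2 scale, beside -0.008 over all genes tested in that fit. Without control replicate 2, 8 members were lower, and the median was -1.10 beside 0.004 over all genes. The share of all genes lower by value was not counted in these fits. Clock was the 1 member with both YAP5SA libraries above both control libraries, which held for 28.1%. DESeq2 called 1 member, Per3, as lower (2.82% of the genes it tested), and edgeR with no filter on low counts called 4, Cry2, Dbp, Per2 and Per3 (5.53% of the genes it tested).

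The control libraries also differed from each other, and not in clock genes alone. Of the 9 cardiomyocyte markers, 4 were at least 2-fold higher and 0 at least 2-fold lower in control replicate 2 than in replicate 1. In control replicate 2, 5 members (Per1, Per2, Cry1, Cry2 and Dbp) were at least 2-fold below control replicate 1, beside 8.25% of all tested genes, and Npas2 was at least 2-fold above it (10.2% of genes). Between the YAP5SA libraries 0 members differed by 2-fold in either direction, beside 2.6% of genes lower and 0.886% higher in replicate 2. Per1, Per2, Cry1, Cry2, Dbp and Tef were thus highest in control replicate 1, Npas2 was highest in control replicate 2, and the control libraries lay within counting error of each other for Arntl, Clock and Per3.

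**Figure D1:**
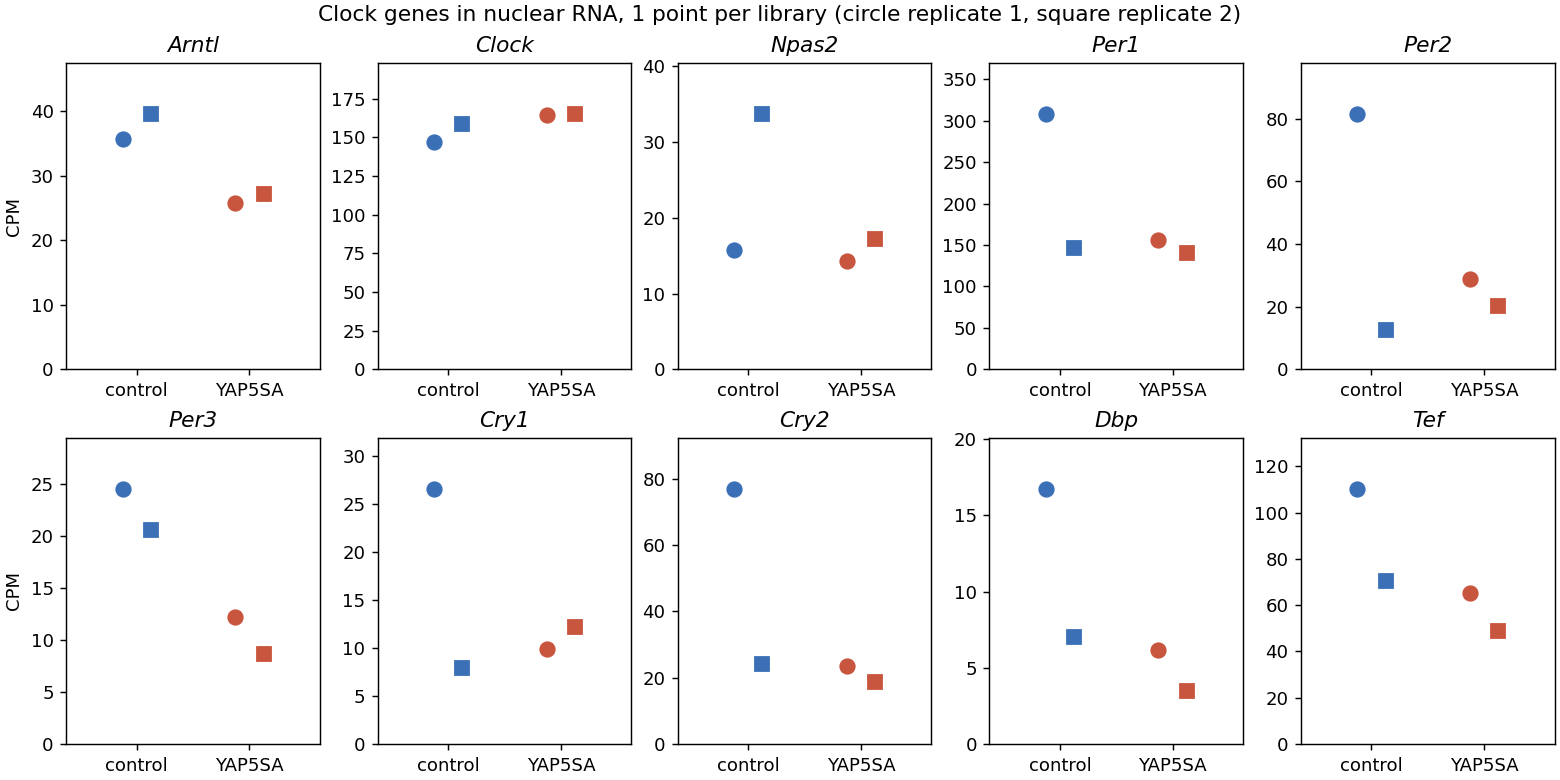
Level of each clock gene in CPM (vertical axes from 0, a separate scale per gene) in the 2 control (blue) and 2 YAP5SA (red) libraries, with circles for replicate 1 and squares for replicate 2. For Arntl and Per3 both YAP5SA libraries lie below both controls, which held for 28.3% of all tested genes. Neither gene passed (edgeR adjusted p = 0.153 and 0.0742). For Per2, Cry1 and Cry2 control replicate 1 stands far above the other 3 libraries.

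Of the activators, Arntl (chromosome 7, 113207465 to 113314126, mm10, GENCODE M21), which encodes BMAL1, the partner that the loop cannot do without, was at 35.7 and 39.5 CPM in control and 25.7 and 27.1 CPM in YAP5SA. The groups did not overlap and the control libraries lay within counting error of each other, with a ratio of replicate 2 to replicate 1 of 1.11 (95% counting interval 0.9498 to 1.29). The log2 fold change was -0.51 (SE 0.168, 95% interval -0.93 to -0.09), and its adjusted p of 0.153 missed the threshold. It stayed between -0.57 and -0.40 whichever library was left out.

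Clock (chromosome 5, 76209868 to 76304792), the histone acetyltransferase partner of BMAL1, measured 147 and 159 CPM in control and 165 and 165 CPM in YAP5SA. It was the most even of the 10, with a log2 fold change of 0.11 (SE 0.160, 95% interval -0.29 to 0.51, adjusted p = 0.724). The interval leaves room for a change of at most 0.51 upward on the log2 scale.

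Npas2 (chromosome 1, 39193731 to 39363236), which can stand in for Clock, was at 15.8 and 33.7 CPM in control and 14.4 and 17.2 CPM in YAP5SA. Control replicate 2 alone was high, 2.14-fold above replicate 1 (1.76 to 2.61), and the YAP5SA libraries lay around control replicate 1. The log2 fold change of -0.64 (SE 0.381, adjusted p = 0.362) became 0.03 without control replicate 2 and -1.09 without control replicate 1.

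Among the repressors, Per3 (chromosome 4, 151003652 to 151044665), a period gene held to be dispensable for the core rhythm, separated the groups best. It was at 24.5 and 20.6 CPM in control and 12.2 and 8.66 CPM in YAP5SA, so that every YAP5SA library was at most 12.2 CPM and every control library at least 20.6 CPM. The difference was 2.16-fold (log2 fold change -1.11, SE 0.251, 95% interval -1.74 to -0.49), with an adjusted p of 0.0742 in edgeR and 0.0371 in DESeq2. Its log2 fold change was -0.97 without control replicate 1 and -1.19 without control replicate 2. Leaving out a YAP5SA library gave -1.36 without replicate 1 and -0.87 without replicate 2.

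Per2 (chromosome 1, 91415982 to 91459324), a period gene whose loss disrupts rhythms and which also responds to glucocorticoid hormones, was the most uneven. It had 899 counts in control replicate 1 and 95 in control replicate 2, which is 81.4 and 12.6 CPM, a 6.48-fold difference (95% counting interval 5.24 to 8.10). The YAP5SA libraries, at 28.8 and 20.3 CPM, lay between the 2 controls. The log2 fold change of -0.95 has an SE of 0.790 and an interval from -2.92 to 1.03 (adjusted p = 0.510), and leaving out a control library turned its direction: it was 0.98 without control replicate 1 (edgeR adjusted p = 2.65e-05) and -1.69 without control replicate 2 (edgeR adjusted p = 3.18e-30).

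Per1 (chromosome 11, 69095217 to 69109960), a period gene that light and hormone signals induce quickly, was at 308 and 146 CPM in control and 156 and 140 CPM in YAP5SA. Control replicate 1 was 2.10-fold above replicate 2 (1.97 to 2.25), and the other 3 libraries lay together. The log2 fold change was -0.61 (SE 0.363, adjusted p = 0.360) and 0.03 without control replicate 1.

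The cryptochromes, the stronger repressors of the activator pair, also stood highest in control replicate 1. Cry1 (chromosome 10, 85131700 to 85185064) was at 26.6 and 7.93 CPM in control, a 3.36-fold difference (2.54 to 4.51), and at 9.91 and 12.2 CPM in YAP5SA. Both YAP5SA libraries were inside the control range. Its log2 fold change of -0.66 (SE 0.549, adjusted p = 0.506) was 0.48 without control replicate 1. Cry2 (chromosome 2, 92403646 to 92434043) was at 77.1 and 24.1 CPM in control and 23.6 and 18.7 CPM in YAP5SA. The groups of Cry2 did not overlap, but control replicate 2 and YAP5SA replicate 1 lay close together, and its log2 fold change of -1.26 (SE 0.534, adjusted p = 0.230) shrank to -0.18 without control replicate 1.

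The output factors lay lower in both YAP5SA libraries. Dbp (chromosome 7, 45705088 to 45710203), among the genes with the widest daily swing in many tissues, was at 16.8 and 7.01 CPM in control and 6.20 and 3.49 CPM in YAP5SA. Replicate 1 was above replicate 2 in both groups, 2.39-fold in control and 1.77-fold in YAP5SA. The log2 fold change was -1.30 (SE 0.511, 95% interval -2.58 to -0.02, adjusted p = 0.205) and -0.51 without control replicate 1. Exons of Sphk2 on the other strand overlap 18.0% of the exon bases of Dbp. The kit was stranded, but the strand setting of the counting is not given. Whether reads of Sphk2 were counted under Dbp is therefore not known. Sphk2, named after its values were seen, was at 26.0 and 17.8 CPM in control and 19.7 and 19.7 CPM in YAP5SA. Tef (chromosome 15, 81802421 to 81826863), the PAR bZIP factor related to Dbp, was at 110 and 70.6 CPM in control and 65.4 and 48.9 CPM in YAP5SA (log2 fold change -0.66, SE 0.277, 95% interval -1.36 to 0.03, adjusted p = 0.227). The value of Tef was -0.29 without control replicate 1 and -0.91 without control replicate 2.

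**Figure D2:**
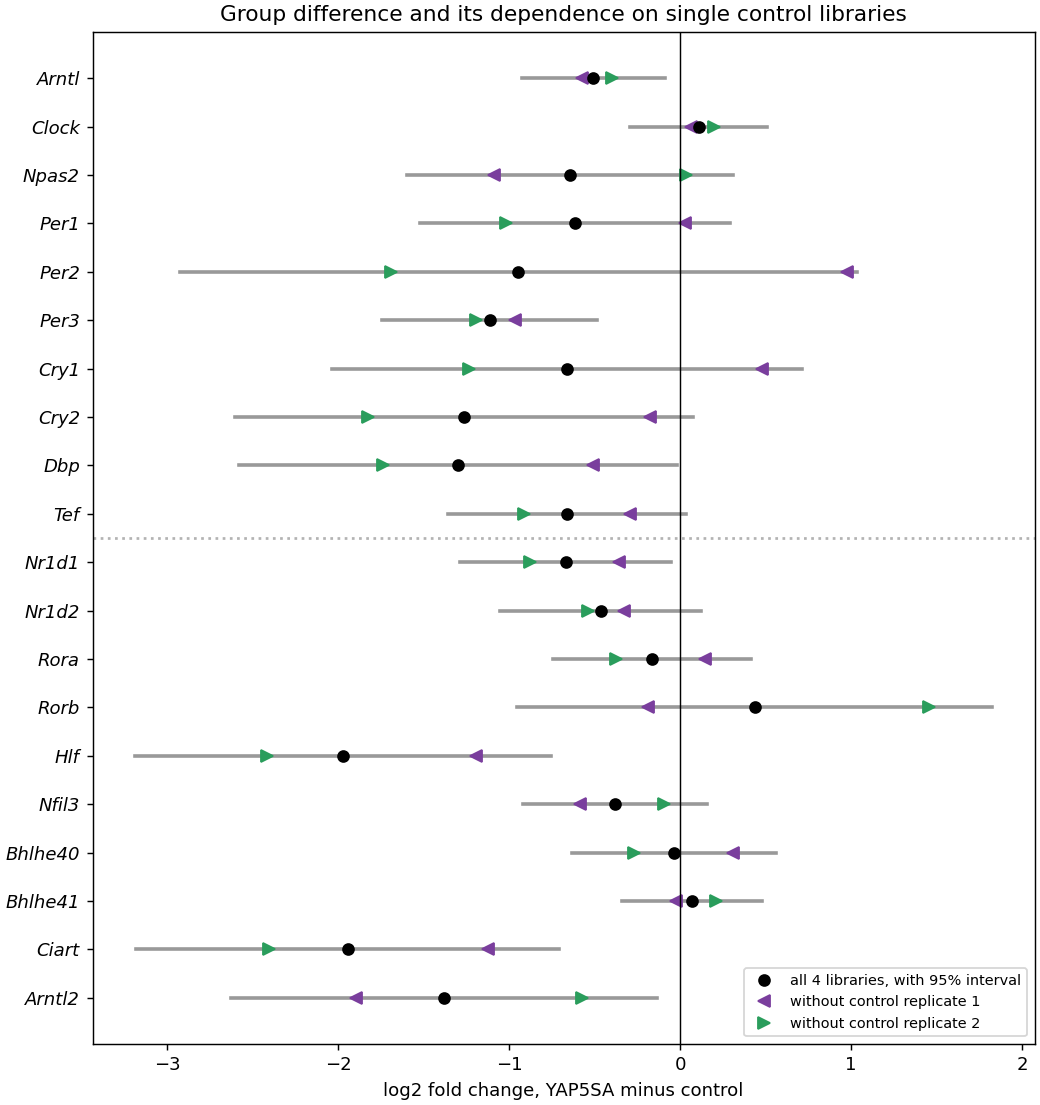
Log2 fold change of YAP5SA minus control for the 10 members (above the dotted line) and 10 of the 11 second-loop clock genes (below it), with black points and grey 95% intervals for all 4 libraries and triangles for fits without 1 control library. The triangles of Per3 and Arntl stay close to the point, at -0.97 and -1.19 and at -0.57 and -0.40, while those of Per2 lie at 0.98 and -1.69.

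Leaving out a control library thus changed which members passed. Without control replicate 2, 8 members fell (all but Clock and Npas2), in a fit in which 18.6% of all tested genes fell. Without control replicate 1, Arntl, Npas2 and Per3 fell and Per2 rose, in a fit in which 17.4% fell and 18.8% rose. On the log2 scale Arntl was at -0.57 without control replicate 1 and -0.40 without control replicate 2, and Per3 at -0.97 and -1.19. Both fits use the same YAP5SA libraries, so they are not independent. In each such fit the lone control library is assumed to vary like the YAP5SA pair, the closer of the pairs. Without YAP5SA replicate 1, and likewise without YAP5SA replicate 2, 0 members passed in either direction. In those fits 0.0266% and 0% of all tested genes fell and 0.362% and 0.143% rose, with 9 members lower by value in each.

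A ratio of counts within a library does not depend on how libraries are scaled. Per count of Arntl there were 2.28 counts of Per2 in control replicate 1 and 0.318 in control replicate 2, with 1.12 and 0.748 in the YAP5SA libraries. The ratio of Cry2 to Arntl was 2.16 and 0.609 in control and 0.916 and 0.689 in YAP5SA, and that of Dbp to Arntl was 0.4695 and 0.177 in control and 0.241 and 0.129 in YAP5SA. Both YAP5SA libraries lay between the control libraries for Per2 and Cry2. Arntl, the denominator, was itself lower in both YAP5SA libraries, which raises the YAP5SA ratios. In CPM, Cry2 was lower in both YAP5SA libraries (23.6 and 18.7) than in either control (77.1 and 24.1). Its log2 fold change with library totals only was -1.26. The ratio of Clock to Arntl was 4.13 and 4.01 in control and 6.39 and 6.09 in YAP5SA, and it was the steadiest within groups of the 9 ratios.

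Compared per kb of merged exon (GENCODE M21), Per1 was the most abundant member, with a mean of 40.3 CPM per kb in control and 26.4 in YAP5SA, and its lowest library (24.9) lay above the highest library of any other member (14.0, Tef). Tef (control mean 11.5) and Clock (11.1) followed, then Per2 (8.02), Cry2 (8.001), Cry1 (5.17), Npas2 (5.16), Arntl (4.998), Dbp (3.97) and Per3 (2.35). Below Per1, the ranges over the 4 libraries of neighbours in this order overlapped in every case, so the order of neighbours is not settled. Members further apart could be separated: the lowest library of Clock (10.7) lay above every library of Cry1, Npas2, Arntl, Dbp and Per3. The sources used here do not say whether intronic reads were counted; if they were, merged exon length understates the counted length.

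**Figure D3:**
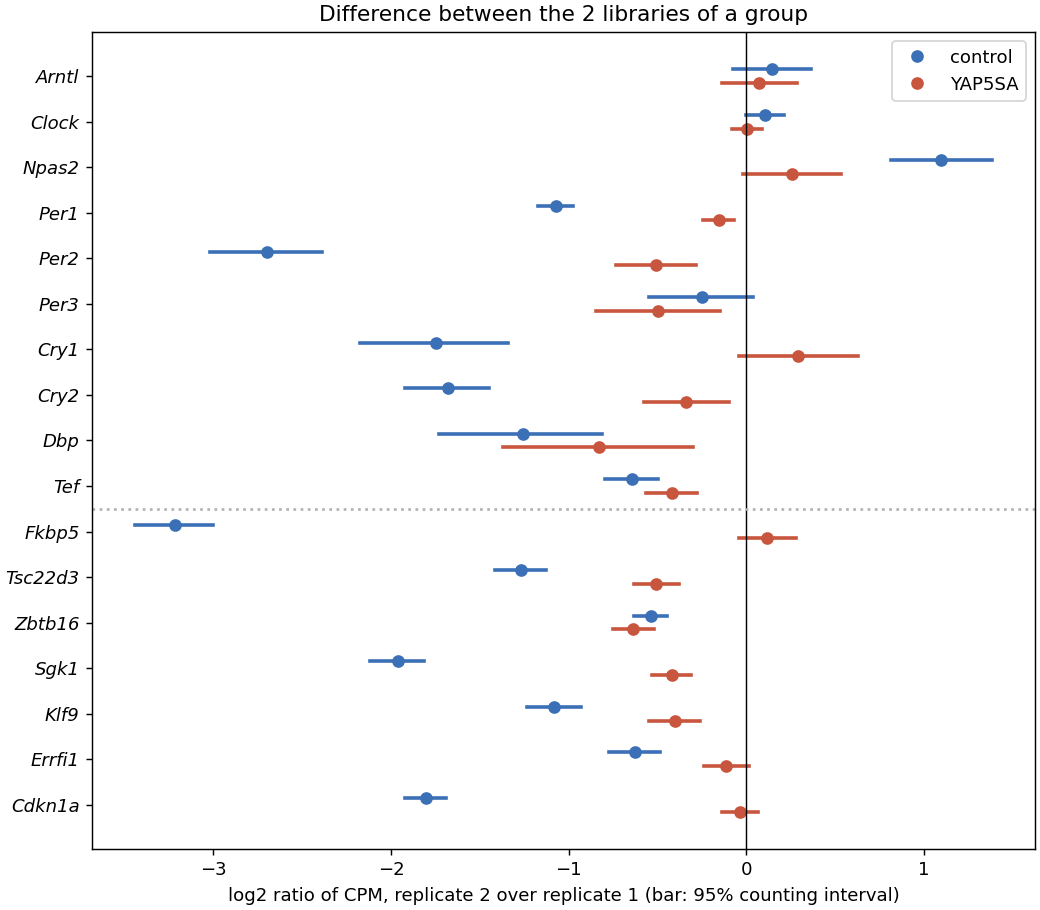
Log2 ratio of CPM in replicate 2 over replicate 1, in control (blue) and YAP5SA (red), for the 10 members and, below the dotted line, 7 glucocorticoid-induced genes, with bars for the 95% counting interval. Per2 and Fkbp5 lie furthest to the left in control, and the YAP5SA points lie nearer to 0 for all genes but Per3 and Zbtb16.

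The second loop of the clock couples the first to nuclear receptors and further repressors. Of its 11 genes, 0 passed with edgeR in either direction, 5 were lower and 0 higher at an unadjusted p under 0.05 (10.9% and 12.7% of all tested genes), and the median log2 fold change was -0.47. In 7 of the 11 both YAP5SA libraries lay below both control libraries (28.3% of all tested genes). DESeq2 called 2 as lower, Ciart and Hlf, beside 2.82% of the genes it tested.

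Hlf, the third PAR bZIP factor, was at 11.95 and 5.02 CPM in control and 2.16 and 2.20 CPM in YAP5SA. Its log2 fold change of -1.97 (SE 0.485, adjusted p = 0.0883 in edgeR and 0.0164 in DESeq2) stayed at or below -1.19 whichever library was left out. Ciart, which encodes a repressor of the BMAL1 and CLOCK pair and holds the 3 E-boxes printed above, was at 13.4 and 5.42 CPM in control and 2.56 and 2.35 CPM in YAP5SA, with a value of -1.95 on the log2 scale (SE 0.494), and its adjusted p was 0.0935 in edgeR and 0.0162 in DESeq2. The value of Ciart was -1.13 without control replicate 1 and -2.40 without control replicate 2. In both genes the 2 YAP5SA libraries were nearly equal while control replicate 1 was over 2-fold above replicate 2.

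Nr1d1 and Nr1d2, which encode the REV-ERB receptors that repress Arntl, were lower by point estimate. Nr1d1 was at 49.99 and 34.2 CPM in control and 29.2 and 23.8 CPM in YAP5SA (log2 fold change -0.67, adjusted p = 0.184), and Nr1d2 at 86.9 and 73.8 CPM in control and 69.1 and 47.2 CPM in YAP5SA (-0.47, adjusted p = 0.298). The groups did not overlap for either. Leaving out 1 library moved Nr1d1 between -0.88 and -0.36 and Nr1d2 between -0.74 and -0.20 on the log2 scale. Rora and Rorb, which encode ROR receptors that activate Arntl, had values of -0.17 and 0.43 with overlapping groups.

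Nfil3, which encodes a repressor at D-boxes and peaks opposite to Dbp, was at 33.96 and 46.8 CPM in control and 32.3 and 29.5 CPM in YAP5SA (log2 fold change -0.38, adjusted p = 0.340). Like Npas2 it was higher in control replicate 2. Arntl2, the paralog of Arntl, had the same pattern at 3.98 and 9.78 CPM in control and 2.70 and 2.51 CPM in YAP5SA (-1.38, adjusted p = 0.177), and its value was -0.58 without control replicate 2 and -1.90 without control replicate 1. Bhlhe40 and Bhlhe41, which encode the DEC repressors at E-boxes, had values of -0.04 (95% interval -0.63 to 0.56) and 0.07 (-0.34 to 0.48), with overlapping groups. The sign of Bhlhe40 flips with DESeq2, limma-voom or no filter. Of these genes Rora and Arntl2 were named after their values were seen, and Rorb by the rule given under the processing.

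**Figure D4:**
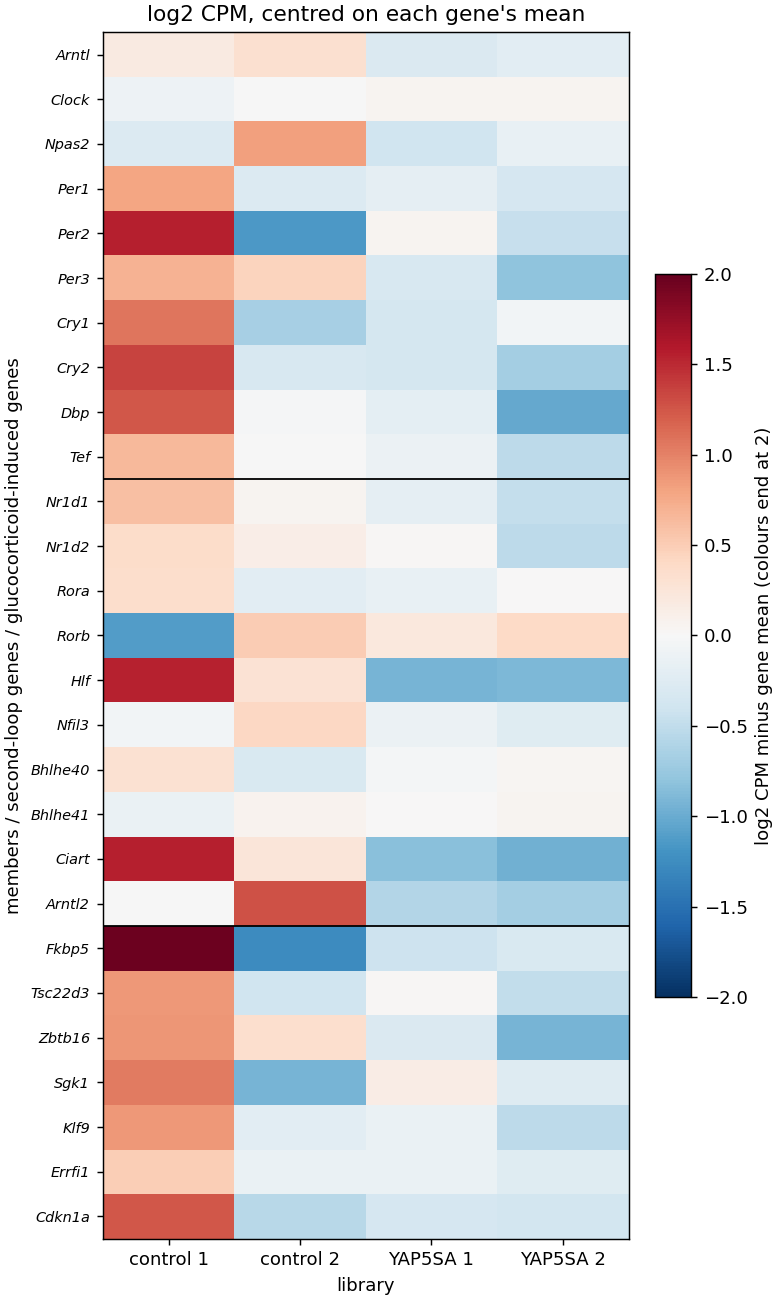
Log2 CPM of each gene minus its mean over the 4 libraries (colour scale from -2 to 2, red above the mean), for members, 10 of the second-loop genes and glucocorticoid-induced genes from top to bottom. Control replicate 1 is red for most repressors and outputs. Control replicate 2 is the redder of the controls for Npas2, Rorb, Nfil3 and Arntl2 and, more weakly, for Arntl, Clock and Bhlhe41.

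A further list held genes whose proteins modify or degrade clock proteins. Of these 19 regulators 0 passed with edgeR, 2 were higher and 1 lower at an unadjusted p under 0.05 (12.7% and 10.9% of all tested genes), and the median log2 fold change was 0.04. Ddb1, which encodes the adaptor of a ubiquitin ligase best known from DNA repair, was at 334 and 250.2 CPM in control and 642 and 708 CPM in YAP5SA, a 2.31-fold difference with an adjusted p of 0.0560 in edgeR that passed in DESeq2 (0.000158) and limma-voom (0.0494). Csnk1e, which encodes casein kinase 1 epsilon, the kinase that marks PER proteins for breakdown, was at 51.7 and 31.2 CPM in control and 65.6 and 72.8 CPM in YAP5SA (log2 fold change 0.74, adjusted p = 0.185). Btrc, which encodes the ligase subunit that reads that mark, had a log2 fold change of -0.49 (adjusted p = 0.205), and Fbxl21, an F-box gene acting on cryptochromes, one of -1.16 from 14 to 30 counts per library (adjusted p = 0.214).

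Genes driven by the clock in heart and other tissues were split in direction, with 6 negative and 7 positive values. Of 13 such output genes 0 passed with edgeR, 1 was higher and 2 lower at an unadjusted p under 0.05 (12.7% and 10.9% of all tested genes), and the median log2 fold change was 0.03. Kcnip2, which encodes a subunit of the transient outward potassium channel with a daily rhythm in the heart, was at 3.71 and 10.7 CPM in control and 1.42 and 1.67 CPM in YAP5SA (-2.20, SE 0.585, adjusted p = 0.103 in edgeR and 0.0181 in DESeq2). Kcnip2 was at -1.23 without control replicate 2 and -2.78 without control replicate 1. Dgat2, which encodes an enzyme of triglyceride synthesis, had a log2 fold change of -0.79 (adjusted p = 0.141). Nampt, which encodes the enzyme that salvages NAD, and Usp2, which encodes a deubiquitinase that cycles in many organs, had values of 0.41 and 0.30 (adjusted p = 0.200 and 0.407), with both YAP5SA libraries above both controls.

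Glucocorticoid hormone, which itself has a daily rhythm and induces Per1 and Per2, has its own set of target genes. Of 7 such genes, 5 (Fkbp5, Tsc22d3, Sgk1, Klf9 and Cdkn1a) were at least 2-fold lower in control replicate 2 than in replicate 1, beside 8.25% of all tested genes, and 0 differed by 2-fold between the YAP5SA libraries. Fkbp5, which encodes a co-chaperone of the glucocorticoid receptor, was at 228 and 24.5 CPM in control, a 9.31-fold difference (8.01 to 10.9), and at 43.5 and 47.3 CPM in YAP5SA. As for Per2, the YAP5SA libraries lay between the controls, and the log2 fold change was 0.90 without control replicate 1 and -2.29 without control replicate 2. Zbtb16 was at 252 and 173 CPM in control and 112 and 71.9 CPM in YAP5SA (-1.21, SE 0.299, adjusted p = 0.0887 in edgeR and 0.00951 in DESeq2), and Klf9, which encodes a hormone-responsive transcription factor, at 134 and 63.2 CPM in control and 67.2 and 50.8 CPM in YAP5SA (-0.74, adjusted p = 0.301). The value of Klf9 was -0.09 without control replicate 1. Of the 7 genes 0 passed with edgeR, and 1 was lower at an unadjusted p under 0.05 (10.9% of all tested genes). DESeq2 called 1, Zbtb16, as lower (2.82% of the genes it tested), and edgeR with no filter called 4, Zbtb16, Fkbp5, Cdkn1a and Klf9 (5.53%). Fkbp5, Tsc22d3, Sgk1 and Cdkn1a were named after their values were seen.

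Over the 4 libraries, the 3 genes whose centred log2 profile lay closest to that of Arntl, out of 10946 candidates, included Fam168a and Sirt5, which encodes a mitochondrial deacylase, at distances of 0.0312 and 0.0537 on the log2 scale. Those closest to Dbp were Col23a1, Tceanc and Cyyr1, at distances of 0.293, 0.295 and 0.335. The profile of Arntl, with little spread within groups, was matched more closely than that of Dbp.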

How the data were processed

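Nuclear RNA-seq of 2 control and 2 YAP5SA libraries was analysed, and the ATAC-seq and 4C-seq samples were not analysed here. The deposited table holds raw counts per gene symbol. A stranded kit that depletes ribosomal RNA was used, and the authors mapped reads to mm10 with STAR, per the labels' protocols. The sources used here do not give the counting program, its strand setting or the annotation. Genes were kept by filterByExpr (minimum count 10) and scaled by TMM, and edgeR 4.0.16 (run in R 4.3.3) compared the groups by its quasi-likelihood test, with no replicate block, adjusted by Benjamini-Hochberg over 17715 genes with a threshold of 0.05. Intervals of log2 fold changes (YAP5SA minus control) use the SE, the fold change over the square root of F, and counting intervals are exact binomial at 95% and cover counting error only. Alternatives were DESeq2 1.42.0, limma-voom (limma 3.58.1), library totals only, no filter, at least 50 counts in 2 libraries, a replicate block, and leaving out each library. Members and gene lists were chosen with earlier results of these data known. Named by rule were all members and 7 second-loop genes in any case. From the second-loop list and each other list the rule took the genes past the threshold. It added the 2 with the smallest adjusted p in each direction (at most 6). The nearest profiles were sought among non-members with a mean of at least 5 CPM, by Euclidean distance. A second-loop gene and a near profile are not reported here by name. The pipeline was tested on simulated data with the same spread in both groups, so that test does not cover the uneven spread seen here.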

Additional observations from a re-analysis of the deposited data

How the results depend on the processing

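Without a filter on low counts 4 members (Cry2, Dbp, Per2 and Per3), 4 second-loop, 2 output and 4 glucocorticoid-induced genes fell and 2 regulators rose, and with DESeq2 1 member, 2 second-loop and 1 output gene fell and 1 regulator rose. Limma-voom called 1 regulator (Ddb1) as higher. Over all tested genes, 5.53% fell and 5.65% rose without a filter, and 0.903% fell and 3.12% rose with limma-voom. With DESeq2 2.82% fell, and 1069 of 18702 tested genes rose. The highest counts given next come from fits without a control library. In those fits 17.4% to 18.6% of all tested genes fell and 18.8% to 19.7% rose. Leaving out single libraries, the number of members that fell ran from 0 to 8 and that rose from 0 to 1. For second-loop genes these ran from 0 to 6 and 0 to 1, for regulators from 0 to 3 and 0 to 4, and for output genes from 0 to 6 and 0 to 7. Leaving out a library turned the sign of Npas2 (log2 fold change from -1.09 to 0.034), Per1 (-1.02 to 0.029), Per2 (-1.69 to 0.98), Cry1 (-1.24 to 0.48), Rora (-0.38 to 0.14), Rorb (-0.19 to 1.45), Bhlhe40 (-0.27 to 0.31), Bhlhe41 (-0.023 to 0.21), Fkbp5 (-2.29 to 0.90), Tsc22d3 (-1.05 to 0.19), Cdkn1a (-1.56 to 0.22) and Sgk1 (-1.04 to 0.90). Bhlhe40 was at 0.017 with DESeq2, 0.014 with no filter and 0.0015 with limma-voom. The sign of 9 members was negative in the 6 settings that kept all 4 libraries, library totals only among them. The replicate block called 0 members in either direction and moved the calls over all genes from 553 higher and 177 lower to 321 and 112. Differences between replicates had a correlation of -0.092 across genes between the groups, and the labels do not pair the samples. With the stricter filter Hlf, Ciart, Arntl2, Kcnip2 and Fbxl21 were not tested.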

Other observations

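Immediate-early genes are switched on by signals within minutes. Of 13 tested, Fos and Dusp1 rose with edgeR (3.12% of all tested genes), 4 were higher and 1 lower at an unadjusted p under 0.05 (12.7% and 10.9%), 7 had negative values, and the median log2 fold change was -0.15. Fos, which encodes a subunit of AP-1, was at 38.1 and 53.3 CPM in control and 139 and 126 CPM in YAP5SA (log2 fold change 1.54, SE 0.217, edgeR adjusted p = 0.0337), and Dusp1, which encodes a phosphatase that ends MAP kinase signals, was at 81.3 and 86.05 CPM in control and 265 and 214 CPM in YAP5SA (1.52, edgeR adjusted p = 0.0301). Both calls were lost without either YAP5SA library. On the log2 scale Fos was then at 1.49 without YAP5SA replicate 1 and 1.62 without YAP5SA replicate 2, and Dusp1 at 1.38 and 1.69. Of the others Ier3 and Klf4 had log2 fold changes of 1.04 and 1.13 and Nr4a1 and Fosb of -0.98 and -0.90, with edgeR adjusted p from 0.0545 to 0.282. DESeq2 called Ier3 and Klf4 as higher and Nr4a1 as lower. Of the 18702 genes it tested, 1069 were higher and 2.82% lower. Leaving out control replicate 1 moved Fosb to -0.13 and Klf4 to 1.74. Between the control libraries 5 of these genes were at least 2-fold higher and 2 at least 2-fold lower in replicate 2, beside 10.2% and 8.25% of all tested genes.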
